A study of Mus musculus with 8 samples.

Results

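Pax5, Ebf1, Tcf3, Foxo1, Bach2, Ets1, Ikzf1, Ikzf3, Spib and Spi1 are the 10 genes described here. They were chosen by name, with earlier results of these data known, as transcription factors that build and hold the B cell identity. They are 10 of the 43629 genes in the deposited count table, and all 10 were among the 13035 genes with enough counts to be tested. RNA was measured in 8 libraries of B cells sorted from mouse spleen, 4 in each of 2 groups. The first group, labelled Rosa26GFPZFP36L1 CD23cre/+, carried an allele for GFP-tagged ZFP36L1 at the Rosa26 locus and 1 copy of a Cre recombinase driven from CD23, a surface receptor gene switched on as B cells mature. The control group, labelled Rosa26GFPZFP36L1, carried the same allele and no Cre, although the series title speaks of WT cells. ZFP36L1 is an RNA-binding protein that attaches to AU-rich stretches in 3' untranslated regions (3' UTRs) and speeds the decay of those mRNAs, and the comparison asks what its expression changes in follicular B cells. Cre and the tagged protein go together in this design, so their effects cannot be told apart. The labels give no age, and nothing in them says that each library is its own animal, so a p-value here sets a difference against the spread among libraries, which may be technical.

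B lineage factors work as a network. TCF3 and EBF1 open the program in bone marrow progenitors, EBF1 and FOXO1 sustain each other, and PAX5 then fixes commitment by switching on B cell genes and silencing those of other lineages. In the mature follicular B cell of the spleen the same factors keep the cell quiescent and ready to respond, while BACH2, ETS1 and PAX5 hold back the switch to an antibody-secreting plasma cell.

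The libraries held 38947758 to 48328512 counts in the group labelled GFP-ZFP36L1 and 40976668 to 51024233 counts in controls. Each factor was read from 2692 counts (Spi1) to 65478 counts (Ets1) in a library. On the first principal component, which held 37.3% of the variance, GFP-ZFP36L1 replicates 1 to 4 lay at -7.54, 7.38, 13.3 and 33.0 and control replicates 1 to 4 at -23.1, -12.9, -6.85 and -3.26. In both groups this order is that of the numbers in the sample titles, whose meaning the labels do not give. With group in the fit, the slope on title number was called for 20.8% of tested genes by edgeR and for 0 of the 10 factors, with the lowest adjusted p at 0.0722 (Spi1) and 3 factors at an unadjusted p under 0.05 (Spi1, Bach2 and Ikzf3). Zfp36l1 itself averaged 439 ± 28.6 CPM (counts per 1000000, scaled by TMM factors for library composition) in the libraries labelled GFP-ZFP36L1 and 547 ± 35.1 CPM in controls (SD, n = 4 each). It was thus lower under that label (log2 fold change -0.32 ± 0.07, SE, edgeR adjusted p = 0.0348), and the table does not separate allele transcripts from endogenous ones. The Rosa26 transcript Gt(ROSA)26Sor was at 3.90 ± 0.604 against 16.9 ± 2.58 CPM. Groups are therefore named by label below, as labelled libraries and controls. The sort gate in the labels is positive for CD93, a marker of immature B cells, which goes against the label of follicular cells, and whether the sign is a slip is not known. Cd93 was at 11.3 ± 2.86 against 10.5 ± 2.0 CPM. All 12 mature follicular B cell markers were detected. Of 10 transitional and precursor genes, Igll1 and Dntt had 0 counts in all 8 libraries. Of the 4 that were tested, 3 had a log2 fold change above 0 and 1 below, and 0 were called by edgeR. Myb, at 5.83 ± 1.55 CPM in labelled libraries against 3.92 ± 0.72 CPM in controls, had an unadjusted p under 0.05. So did Sox4, at 5.48 ± 0.384 against 7.53 ± 1.41 CPM. The 10 summed to 19.5 to 27.5 against 18.4 to 27.7 CPM. Among T cell genes Cd3e had 3 counts in all 8 libraries and Lck 11673. Summed levels of the marker lists of other cells overlapped between the groups. For 12 T cell genes they were 36.5 to 38.1 against 33.6 to 37.3 CPM, most of it Lck (34.0 ± 0.431 against 32.5 ± 1.27 CPM). For 12 myeloid genes they were 5.90 to 7.25 against 6.02 to 7.26 CPM, but single genes differed. Of the 4 tested myeloid genes, 2 had a log2 fold change above 0 and 2 below. Itgam was called higher, at 3.41 ± 0.725 against 1.96 ± 0.335 CPM. Adgre1 was at 1.73 ± 0.65 against 3.21 ± 0.574 CPM and was not called (edgeR adjusted p = 0.0815). For 8 marginal zone B cell genes the sums were 1697 to 2065 against 1659 to 1828 CPM, most of it Cr2 (1327 ± 108 against 1256 ± 65.0 CPM). For 6 plasma cell genes they were 151 to 174 against 153 to 168 CPM.

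The 3' UTRs of Ebf1 and Bach2 are shown here because ZFP36L1 acts through such regions and no other factor of the 10 holds its core binding word. That word is UAUUUAU, searched as TATTTAT on the sense strand of the longest annotated 3' UTR of each gene in GENCODE release 21, build GRCm38. Each line gives 30 nt with the word in capitals.
Ebf1 site 1, chr11:45004968-45004997, plus strand: tctgggggataTATTTATtctgtattgata
Ebf1 site 2, chr11:45006205-45006234, plus strand: caaagttgtttTATTTATacattttaatgt
Ebf1 site 3, chr11:45006387-45006416, plus strand: tataaataatgTATTTATctttggaatttg
Bach2 site 1, chr4:32584921-32584950, plus strand: ctgggagatcaTATTTATaacaagtgaatt

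The Ebf1 sites start at positions 231, 1468 and 1650 of a 3' UTR of 3343 nt, and 53.8% of the 1599 tested 3' UTRs within 25% of that length hold at least 1 such word. The Bach2 site starts at position 4636 of a 3' UTR of 5812 nt, where the share is 65.8%. Pax5 has the longest 3' UTR of the 10, 6749 nt, and none of these words, although 70.9% of 3' UTRs of like length hold one. Foxo1, with 6240 nt, also has none, against 68.5% at like length. The other 6 factors without one are Ets1 (3395 nt), Ikzf1 (3345 nt), Ikzf3 (2084 nt), Spib (1966 nt), Tcf3 (618 nt) and Spi1 (362 nt), with shares at like length between 9.05% (Spi1) and 54.5% (Ets1). Over all 10961 tested genes with a 3' UTR, 29.7% hold the word. The absence of these letters says nothing about binding through other AU-rich words.

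Of the 10 factors, Pax5 alone passed the test between the groups, and it fell. The test was edgeR's quasi-likelihood test with p-values adjusted by Benjamini-Hochberg over all 13035 tested genes, with a call at an adjusted p under 0.05. It called 407 genes, 3.12% of those tested, with 1.83% higher and 1.30% lower in the labelled libraries. Pax5 was also the 1 factor whose groups did not overlap, against 11.2% of all tested genes (4.98% with the labelled libraries lower), and the 1 factor with an unadjusted p under 0.05, against 17.3%. The log2 fold changes of the 10 ran between -0.22 (Pax5) and 0.06 (Ikzf3), with a median of -0.06, against -0.01 over all tested genes. Of the 10, 9 lay below 0, as did 52.1% of all tested genes and 65.7% of the 2935 genes at least as high in CPM as Spi1, the lowest factor, but Foxo1 and Spib, both near 0, turned to just above 0 with upper-quartile factors. Since 5% of tested genes lay under -0.31 and 5% above 0.45, all 10 factors moved less than the genes at either end. These limits are over genes of all levels, and those of genes as high as the factors were not taken.

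**Figure D1:**
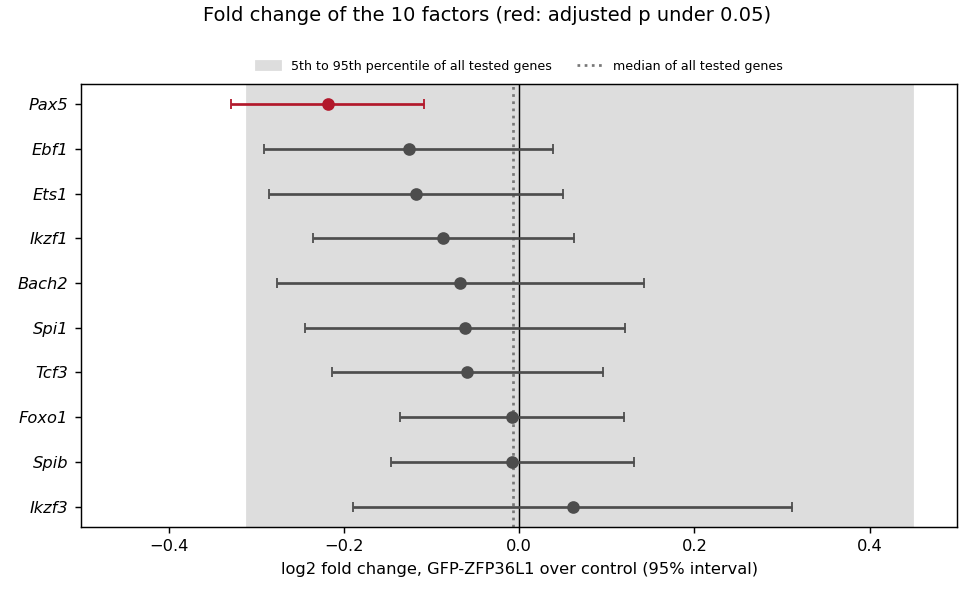
Log2 fold change of each factor, labelled libraries over controls, with its 95% interval from edgeR (points and bars), the median of all 13035 tested genes (dotted line) and their 5th to 95th percentile (grey). The interval of Pax5, -0.33 to -0.11, lies wholly below 0, and those of the other 9 factors span it.

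Pax5 (ENSMUSG00000014030, chr4:44524757-44710487, minus strand), the commitment factor, was at 209, 204, 208 and 219.9 CPM in labelled libraries 1 to 4, against 234, 242, 252 and 249.9 CPM in controls 1 to 4. The highest labelled library lay below the lowest control. It averaged 210.2 ± 6.82 CPM in labelled libraries and 245 ± 8.06 CPM in controls (SD, n = 4 each), a fold of 0.859 with a 95% interval of 0.797 to 0.927. On the log2 scale this was -0.22 ± 0.05 (SE, edgeR adjusted p = 0.0405), and by p Pax5 ranked 318 among all tested genes. The difference was modest, and its replicates were tight: the SD of log2 CPM within groups was 0.047, the smallest of the 10, against a median of 0.124 over all tested genes. Those genes had a median log2 CPM of 4.64, below the level of Pax5, and the SD of genes of like level was not taken. In the authors' deposited table, which used DESeq2, Pax5 had a log2 fold change of -0.21 with an SE of 0.05 and an adjusted p of 0.00054, and the adjusted p-values of the other 9 factors lay between 0.433 and 0.982. The log2 ratio of group means of the authors' normalized values was -0.226 for Pax5, so their fold change of -0.208 lay nearer 0.

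The Pax5 call lies close to the threshold. Its log2 fold change stayed between -0.26 and -0.20 under all 19 alternative settings, and it passed under 12 of them. Of the 19, 1 was chosen after seeing the data, the fit without control replicate 1 and labelled replicate 4. That fit gave the -0.26 and is among the 12 passes. The lowest value under the 18 planned settings was -0.25, with limma voom. The call was lost with upper-quartile factors (adjusted p = 0.0645), without the low-count filter (0.0513), and on leaving out labelled replicate 2 (0.112), labelled replicate 3 (0.119), control replicate 2 (0.108), control replicate 3 (0.145) or control replicate 4 (0.112), all fitted with edgeR. DESeq2 gave an adjusted p of 0.000484 and limma voom with quality weights 0.00547. Those tools call more of the tested genes, 6.63% for DESeq2 and 8.08% for limma voom, while edgeR called 391 genes with upper-quartile factors and 2.37% of genes without the filter. Mature follicular B cell markers had the same direction as Pax5 between the groups. All 12 of these markers had a log2 fold change below 0, as did 65.7% of genes at least as high in CPM as Spi1. Of the 12, 2 were called, among them Ighd. Their summed level was 21185 to 24267 CPM in labelled libraries against 24519 to 26142 CPM in controls. Of 8 marginal zone B cell markers 5 lay above 0 and 3 below, with a median log2 fold change of 0.13. Among these Myof was called higher, at 54.1 ± 17.8 CPM in labelled libraries and 22.4 ± 2.47 CPM in controls, Asb2 was called lower, at 0.489 ± 0.134 against 1.01 ± 0.192 CPM, and S1pr3 was at 13.3 ± 4.12 against 7.09 ± 1.63 CPM (edgeR adjusted p = 0.0539). The part of either marker list in the Pax5 difference was not tested, and in bulk libraries fewer cells of a type and less RNA per cell cannot be told apart. Pax5 shares 636 exonic bp with the uncharacterised transcript 5730488B01Rik on the other strand, which had 278 counts in all 8 libraries, and the sources used here do not give the strand setting of the counting.

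**Figure D2:**
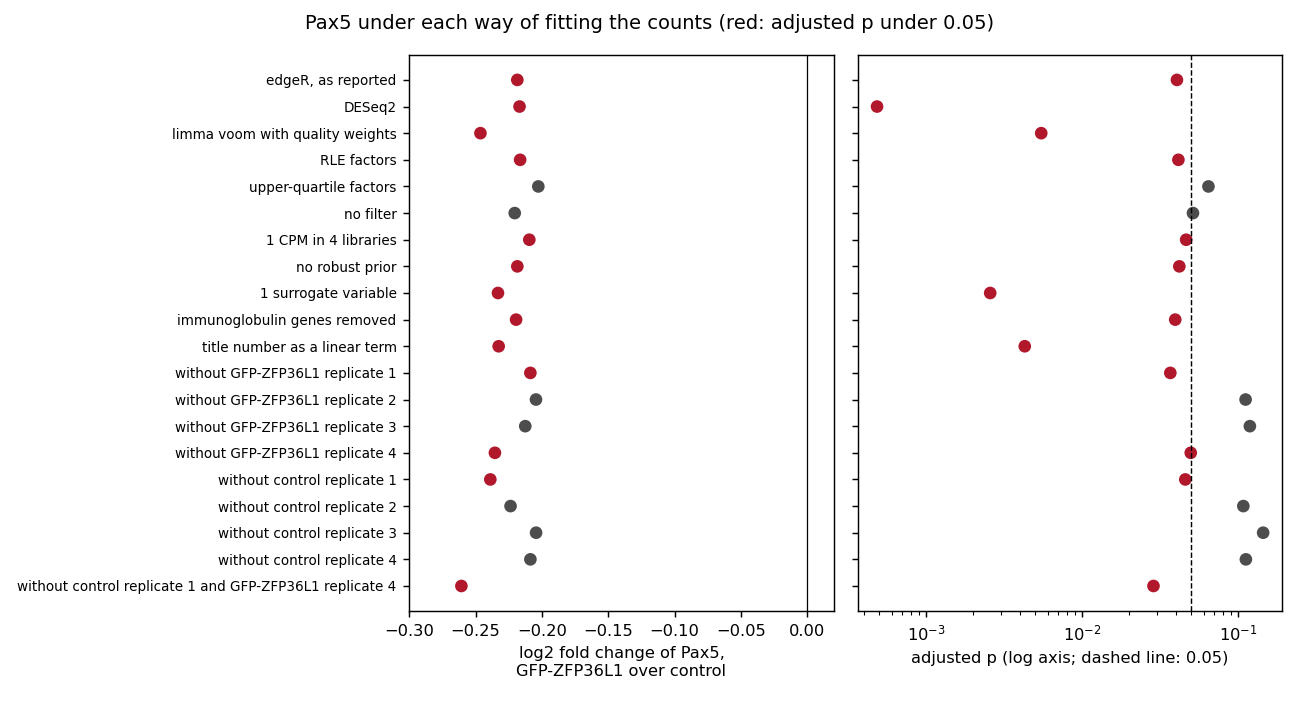
Log2 fold change of Pax5, labelled libraries over controls (left), and its adjusted p on a log axis (right) under the reported fit and each alternative, with adjusted p under 0.05 in red and the threshold dashed. The fold change stays between -0.26 and -0.20 while the adjusted p runs from 0.000484 to 0.145. The -0.26 is from the setting chosen after seeing the data, without control replicate 1 and labelled replicate 4.

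Ebf1 (ENSMUSG00000057098, chr11:44617317-45008091, plus strand), the pioneer factor that opens B lineage chromatin, was at 284, 253, 244 and 260.4 CPM in labelled libraries and 245, 298, 303 and 291 CPM in controls. Control replicate 1 was the lowest control and labelled replicate 1 the highest labelled library, and the groups overlapped. On the log2 scale the difference was -0.13 ± 0.08 (SE, edgeR adjusted p = 0.432), and the 95% interval of the fold, 0.817 to 1.03, leaves room for a decrease as large as that of Pax5. Its 3 UAUUUAU words, shown above, thus stand beside a change that did not pass the test.

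Tcf3 (ENSMUSG00000020167, chr10:80409514-80433647, minus strand), an E protein that starts the program, was at 212, 183, 207 and 206 CPM in labelled libraries and 189, 205, 214 and 233 CPM in controls. Most of the 2 ranges overlapped. The difference was -0.06 ± 0.07 on the log2 scale (SE), with a fold between 0.862 and 1.07 (95% interval).

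Foxo1 (ENSMUSG00000044167, chr3:52268336-52353221, plus strand), a factor that PI3K signalling keeps out of the nucleus, was at 262, 263, 241 and 268 CPM in labelled libraries and 256, 245, 278 and 262 CPM in controls. The groups overlapped over most of their range. On the log2 scale the difference was -0.01 ± 0.06 (SE), with a fold between 0.910 and 1.09 (95% interval), so a difference of the size of that in Pax5 lies outside the interval.

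Bach2 (ENSMUSG00000040270, chr4:32238804-32586108, plus strand), a repressor of the plasma cell program, was at 279, 279.8, 285 and 273 CPM in labelled libraries and 236, 276, 314 and 343 CPM in controls. The labelled libraries lay close together, within the wide range of the controls. The averages were 279 ± 5.01 CPM in labelled libraries and 292 ± 46.6 CPM in controls (SD, n = 4 each), and the log2 fold change was -0.07 ± 0.10 (SE). Whether the spread itself differed was not tested.

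Ets1 (ENSMUSG00000032035, chr9:32636221-32757820, plus strand), which restrains plasma cell formation, was at 1385, 1203, 1176 and 1208 CPM in labelled libraries and 1250.2, 1317, 1391 and 1434 CPM in controls. Labelled replicate 1 lay among the controls, and the other 3 labelled libraries lay below every control. The change was -0.12 ± 0.08 on the log2 scale (SE, edgeR adjusted p = 0.475), with a fold between 0.821 and 1.04 (95% interval).

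Ikzf1 (ENSMUSG00000018654, chr11:11685003-11772926, plus strand) encodes Ikaros, a zinc finger factor that recruits chromatin remodellers. It was at 504, 495, 418 and 466 CPM in labelled libraries and 494, 493, 522 and 491 CPM in controls. Labelled replicates 3 and 4 lay below every control and the other 2 did not. Its log2 difference was -0.09 ± 0.07 (SE), with a fold between 0.850 and 1.04 (95% interval).

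Ikzf3 (ENSMUSG00000018168, chr11:98464902-98546031, minus strand) encodes Aiolos, a relative of Ikaros that rises as B cells mature. It was at 772, 929, 797 and 880.1 CPM in labelled libraries and 612, 856, 873 and 897 CPM in controls. Control replicate 1 lay apart at the low end, and the remaining libraries of both groups were mixed. The fitted difference was 0.06 ± 0.11 on the log2 scale (SE), and without control replicate 1 it was -0.05, so the sign of this value rests on that library.

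Spib and Spi1 encode Spi-B and PU.1, related ETS factors that share target genes in B cells. Spib (ENSMUSG00000008193, chr7:44525993-44532071, minus strand) was at 1033, 988, 958 and 917 CPM in labelled libraries and 1005, 999, 962 and 951 CPM in controls. The controls lay within the range of the labelled libraries. Its log2 fold change was -0.01 ± 0.06 (SE), with a fold between 0.903 and 1.09 (95% interval). Spi1 (ENSMUSG00000002111, chr2:91082390-91115756, plus strand) was at 88.8, 72.9, 82.3 and 65.6 CPM in labelled libraries and 86.7, 79.4, 77.3 and 79.8 CPM in controls. The labelled libraries spread further on both sides than the controls. Its log2 fold change was -0.06 ± 0.08 (SE), with a fold between 0.844 and 1.09 (95% interval).

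**Figure D3:**
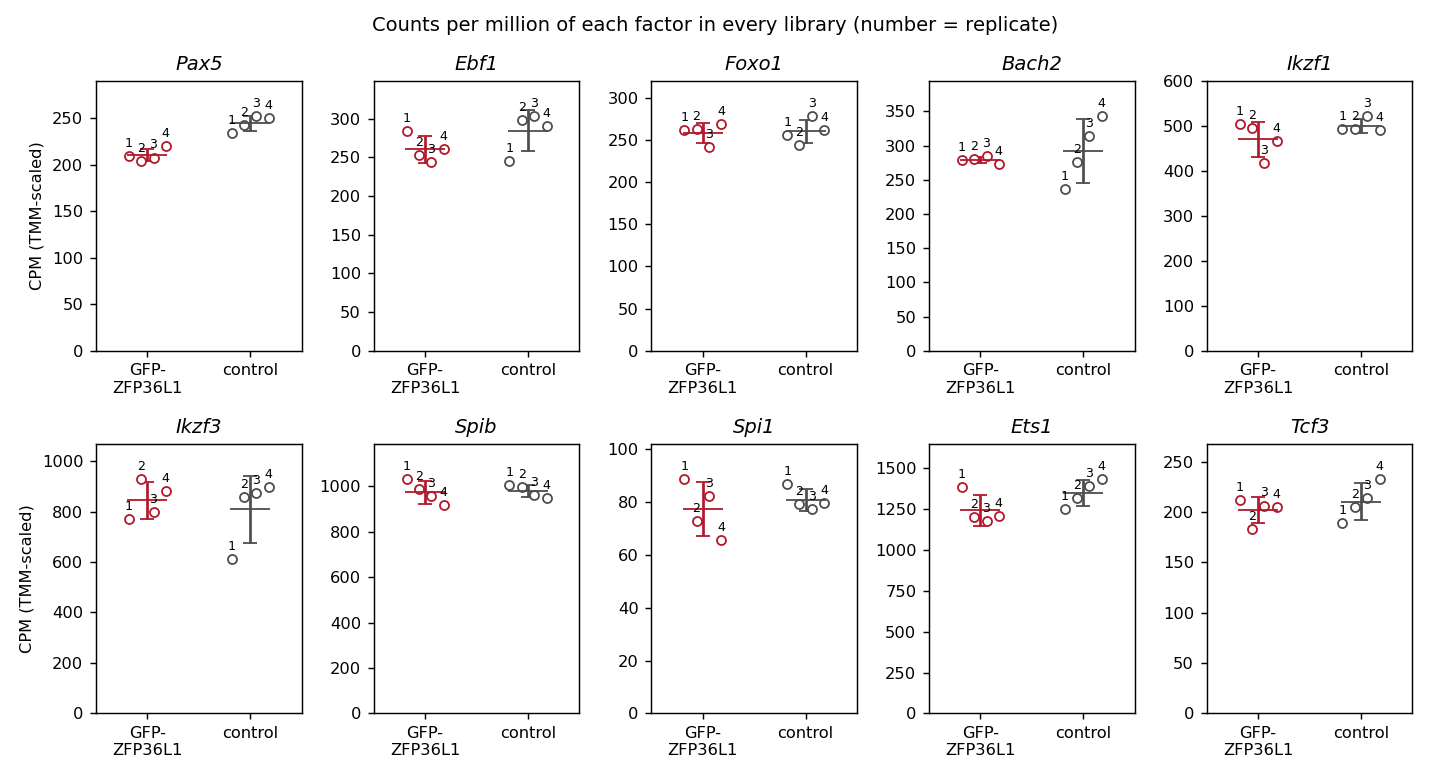
CPM of each factor in every library (open circles, numbered by replicate) with the group mean and SD (n = 4 each), labelled libraries left and controls right in each panel, every axis from 0. Pax5 is the panel where all labelled libraries lie below all controls, and in the other 9 panels the groups overlap.

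Levels of different genes were set against each other per length, as CPM per kilobase of the joined exons. Spib was highest at 341 per kilobase over all libraries, and Ets1 followed at 153. No library's value of Ets1, 139 to 169, reached the lowest of Spib, 319.6. Ikzf3 (94.5, range 69.9 to 106) and Ikzf1 (84.0, range 72.4 to 90.4) overlapped, so their order does not hold beyond the spread. Tcf3, at 51.01 with a range of 45.3 to 57.7, stood apart from the factors on either side. Foxo1 (29.9), Spi1 (29.4), Bach2 (28.7), Ebf1 (27.9) and Pax5 (25.7) followed, and neighbours among these 5 overlapped. Scaled by the longest transcript instead, Ebf1 took the sixth place (45.5 per kilobase) and Foxo1 the ninth (29.9), and the other 8 kept theirs. Pax5 had the lowest mean over the 8 libraries on both scales, but by longest transcript its control mean (30.6) lay above that of Foxo1 (30.01), so its last place there does not hold in controls. These are mRNA levels and say nothing about protein.

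**Figure D4:**
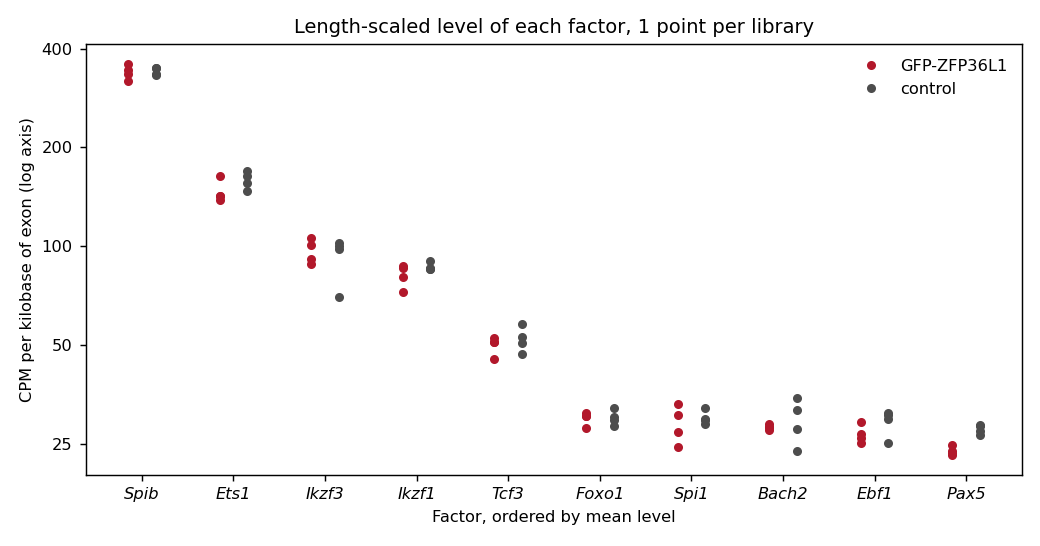
CPM per kilobase of joined exons for each factor on a log axis, 1 point per library, labelled libraries (red) left of controls (grey). Spib and Ets1 stand above the rest, and the 5 lowest factors lie within a range of 23.0 to 34.5 per kilobase.

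Set against each other within a library, Pax5 was lower relative to all 9 other factors in the labelled libraries, by the mean log2 ratio. The ratio of Pax5 to Foxo1 averaged -0.30 in labelled libraries and -0.09 in controls on the log2 scale, and that to Ikzf3 -2.0 in labelled libraries and -1.71 in controls, and for both the groups did not overlap. The ratios to the other 7 factors overlapped between groups. These ratios use the same Pax5 values as the test above and are given as a description.

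Over the 8 libraries the gene whose log2 CPM most resembled that of Pax5 was Cd22, an inhibitory coreceptor of the B cell receptor, with a Pearson r of 0.9935 among 8830 genes of at least 5 CPM. Cd22 averaged 1772 CPM in labelled libraries and 2079.5 CPM in controls, a log2 fold change of -0.23 ± 0.07 (SE) that missed the threshold (edgeR adjusted p = 0.0934). The closest genes to the others were Parp1 for Ebf1 (r = 0.956), Afg3l2 for Tcf3 (0.969), Rrp12 for Foxo1 (0.971), Wipf2 for Bach2 (0.941), Smap2 for Ets1 (0.952), Tle4 for Ikzf1 (0.953), Shprh for Ikzf3 (0.991), Sdcbp for Spib (0.992) and Armc7 for Spi1 (0.989). Each is the best of 8830 candidates over 8 libraries that share depth and group, so high values arise readily. Among the factors themselves, 37 of 45 pairs had an r above 0, and 33 had one for deviations from group means. The share among pairs of other genes was not counted, so these counts have no background. The highest r was between Ebf1 and Ets1 (0.863, and 0.810 for deviations from group means). Spib and Spi1 had an r of 0.764, and the lowest was -0.65, between Ikzf3 and Spi1.

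The genes around the factors were read from 12 lists of relatives, inhibitors, targets and upstream signals, with 147 genes besides the factors, of which 118 were tested. Of these, 7 were called and all 7 fell, 5.93% against 3.12% of all tested genes, among them Bcl11a, Irf8, Cd83, Gadd45a, Sgk1 and Txnrd1. The other 111 did not pass, 70 of the 118 lay below 0, and their median log2 fold change was -0.05. Several genes stand on more than 1 list, and the lists were chosen with earlier results of these data known. The share called and its direction are therefore not independent of the data. Txnrd1 passed under all 19 alternatives. Bcl11a, Irf8, Cd83, Gadd45a and Sgk1 all lost the call on leaving out labelled replicate 2, labelled replicate 3, control replicate 2 or control replicate 3, with highest adjusted p between 0.0891 (Cd83) and 0.149 (Irf8) in edgeR. Leaving out labelled replicate 4 ended the call of all of these 5 but Sgk1, control replicate 4 that of all but Cd83, and control replicate 1 that of Irf8, Gadd45a and Sgk1.

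**Figure D5:**
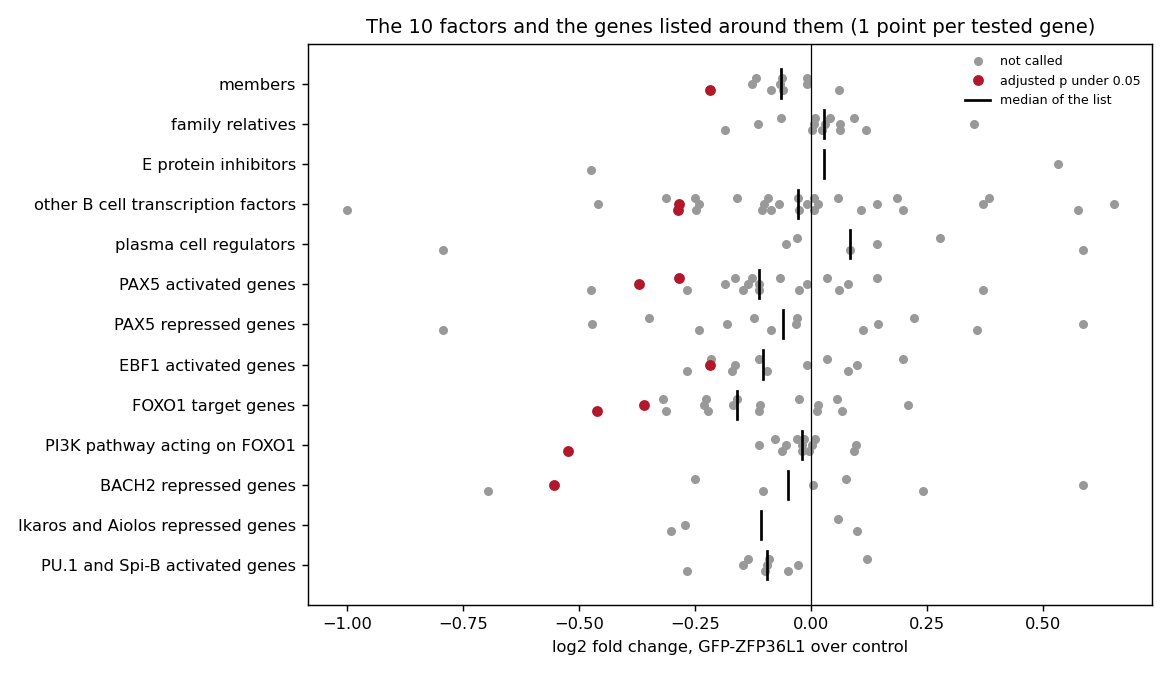
Log2 fold change, labelled libraries over controls, of each tested gene on each list (points), with genes of adjusted p under 0.05 in red and the list median as a bar. Every red point lies below 0, and list medians lie between -0.16 (FOXO1 targets) and 0.09 (plasma cell regulators).

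Among relatives of the same gene families, 0 of 14 tested passed in edgeR, with a median log2 fold change of 0.03. Of these 2 had an unadjusted p under 0.05, and 0 passed in DESeq2. The ETS genes Spic, a relative of Spib and Spi1, and Fli1 had the smallest p, with values of 0.35 ± 0.13 and -0.19 ± 0.07 (SE). Each passed in 1 alternative fit, limma voom with quality weights. A paralog was scarcely present for PAX5 and EBF1: Pax6 had 28 counts in all 8 libraries together, Ebf2 had 1 count and Ebf3 had 0. Of the inhibitors that pair with E proteins such as TCF3, Id2 was at 3.84 ± 0.865 against 2.65 ± 0.197 CPM and Id3 at 45.0 ± 10.3 against 62.5 ± 7.49 CPM, with log2 fold changes of 0.53 ± 0.16 and -0.47 ± 0.15 (SE). Neither passed in edgeR, both had an unadjusted p under 0.05, and both passed in DESeq2.

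Among 29 other tested B cell transcription factors 2 fell in edgeR, which called 3.12% of all tested genes. The median was -0.03, with 12 above 0 and 17 below. An unadjusted p under 0.05 was found for 14 of the 29, against 17.3% of all tested genes. DESeq2 called 8 and limma voom 8, against 6.63% and 8.08% of all tested genes. Bcl11a, a zinc finger factor needed for lymphoid development, was at 243, 238, 224 and 218 CPM in labelled libraries and 273, 279, 303 and 271 CPM in controls, a log2 fold change of -0.29 ± 0.06 (SE, edgeR adjusted p = 0.0283). Irf8, which acts with PU.1 in B cells, was at 418 ± 31.8 CPM in labelled libraries and 509 ± 22.6 CPM in controls, a log2 fold change of -0.28 ± 0.07 (SE, edgeR adjusted p = 0.0456). In both the groups were apart.

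Genes that PAX5 is known to activate had a median of -0.11, against -0.04 over genes at least as high in CPM as Spi1. This list also holds the factors Bach2, Ebf1, Spib and Ikzf3. Of 19 tested, 8 had an unadjusted p under 0.05, against 17.3% of all tested genes. DESeq2 called 4 and limma voom 5, against 6.63% and 8.08% of all tested genes. In edgeR 2 of the 19 fell, against 1.30% of all tested genes. Besides Irf8 this was Cd83, a stabiliser of surface MHC class II, at 164, 152, 153 and 146 CPM in labelled libraries and 226, 203, 192 and 174 CPM in controls, a log2 fold change of -0.37 ± 0.07 (SE, edgeR adjusted p = 0.0271). Genes that PAX5 represses had a median of -0.06 and 0 of 14 passed in edgeR, with 5 at an unadjusted p under 0.05 and 2 called by DESeq2. Gimap4, a lymphocyte GTPase gene, had the smallest p, at 485 ± 64.7 CPM in labelled libraries and 617 ± 45.9 CPM in controls (adjusted p = 0.0758, edgeR). Of 12 tested genes that EBF1 activates, the 1 that passed in edgeR was Pax5 itself, and the median was -0.10. Of the 12, 5 had an unadjusted p under 0.05, and 2 passed in DESeq2 and 2 in limma voom.

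Genes of the FOXO1 program had the lowest median of the 12 lists, -0.16, and 2 of 17 fell although Foxo1 mRNA did not pass. Among them Gadd45a, a growth arrest gene, was at 9.02 ± 1.24 CPM in labelled libraries and 12.4 ± 1.24 CPM in controls, a log2 fold change of -0.46 ± 0.11 (SE, edgeR adjusted p = 0.0452). In the PI3K pathway that acts on FOXO1, 1 of 14 tested fell, with a median of -0.02. It was Sgk1, a kinase that phosphorylates FOXO factors, at 24.3, 18.1, 20.6 and 15.3 CPM in labelled libraries and 27.3, 29.5, 26.1 and 29.5 CPM in controls. Its log2 fold change was -0.52 ± 0.12 (SE, edgeR adjusted p = 0.0402).

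Of 8 tested genes that BACH2 represses, 4 had an unadjusted p under 0.05, and 2 passed in DESeq2 and 1 in limma voom. The median of the 8 was -0.05, with 4 above 0 and 4 below, and in edgeR Txnrd1, an enzyme of the antioxidant response, fell. It was at 45.4, 48.2, 36.1 and 39.1 CPM in labelled libraries and 60.0, 61.1, 67.2 and 59.4 CPM in controls, well apart. The change was -0.55 ± 0.09 on the log2 scale (SE, edgeR adjusted p = 0.0084), with a highest adjusted p of 0.042 over the alternatives. Prdm1, which encodes the plasma cell regulator BLIMP1 that BACH2 and PAX5 both repress, was at 2.25 ± 0.461 CPM in labelled libraries and 1.49 ± 0.265 CPM in controls, and did not pass (edgeR adjusted p = 0.12). Of 7 genes listed as plasma cell regulators 0 passed in edgeR, 3 had an unadjusted p under 0.05 and 1 passed in DESeq2, with a median of 0.09. This list also holds Sdc1 and Jchain, which are plasma cell markers rather than regulators, and Jchain is among the 3. Jchain, the immunoglobulin joining chain gene, was at 0.919 ± 0.174 against 1.60 ± 0.536 CPM.

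Of 4 tested genes that Ikaros and Aiolos repress 0 passed in edgeR or DESeq2, 1 passed in limma voom and 2 had an unadjusted p under 0.05, with the cell cycle gene Ccnd3 at -0.30 ± 0.10 and Myc at -0.27 ± 0.11 (log2 fold change ± SE). Ccnd3 passed in 4 of the 19 alternatives, namely limma voom and the edgeR fits with 1 surrogate variable, with the title number and without labelled replicate 1. Of 9 tested genes that PU.1 and Spi-B activate 0 passed in edgeR, 3 had an unadjusted p under 0.05 and 1 passed in DESeq2, with a median of -0.09. Fcer2a, which encodes CD23, was at 1212 ± 116 CPM in labelled libraries and 1459.7 ± 69.5 CPM in controls (adjusted p = 0.102, edgeR), and Blnk, an adaptor of B cell receptor signalling, was at 364 ± 18.7 against 403 ± 24.7 CPM.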

How the data were processed

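The authors deposited raw counts per gene from libraries made with a stranded mRNA kit and read as pairs of 100 bp, per the labels' protocols. Trim Galore, TopHat2 2.0.12, HTSeq, DESeq2 1.10.1 and build GRCm38 are named in the submitters' processing notes, and settings are not given in the sources used here. A deposited table of normalized values, read as a signal, equals the counts divided by 1 constant per library and served as a check. The authors' deposited comparison table gives a mean signal, log2 fold changes, p-values and a score (the test statistic) per gene.

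All 8 count columns were matched to libraries by title, 0 stayed unmapped, and 0 entries named no gene. Symbols (42548 of 43629) and coordinates came from GENCODE release 21. Counts were fitted in R 4.3.3 with edgeR 4.0.16: filterByExpr, TMM factors, robust quasi-likelihood test with group as the sole term, and Benjamini-Hochberg adjustment over all tested genes. SEs came from the fitted F statistic. Levels are means ± SD of 4 libraries.

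Alternatives were DESeq2 1.42.0, limma 3.58.1 voom with quality weights, other scalings and filters, removal of immunoglobulin genes, the title number as a linear term, 1 surrogate variable (sva 3.50.0) and each library left out. The factors and the lists, written from general knowledge of the field, were chosen with earlier results of these data known, and the lists support no direction independently. Named genes were the 10 factors, the label checks Zfp36l1 and Gt(ROSA)26Sor, up to 4 called genes a list by p or, with none, the 2 of smallest p, the closest gene to each factor by Pearson r, and defining cell markers. A gene that this rule takes is not reported here.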

Additional observations from a re-analysis of the deposited data

Results flagged for a closer look

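A library was singled out where its gap to the nearest library of its group of 4 exceeded, as a ratio to the group's range, Dixon's 95% critical value, which chance exceeds in about 1 in 20 groups. Of 62 groups examined, over 30 genes and the total count, 5 were picked out. Ets1 in labelled replicate 1, at 1385 CPM, was the highest of its group with a ratio of 0.849. Ikzf1 in control replicate 3, at 522 CPM, was the highest with 0.890, and the other 3 controls lay between 491 and 494 CPM. Ikzf3 in control replicate 1, at 612 CPM, was the lowest with 0.858. The ETS relative Spic in control replicate 1, at 6.21 CPM, was the highest with 0.905, and so was Zfp36l1 in the same library, at 599 CPM, with 0.850. Control replicate 1 thus accounts for 3 of the 5, and it was also the lowest on the first principal component (-23.1).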

How the results depend on the processing

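No paired analysis was possible because the titles number the libraries 1 to 8, the groups share no number and the labels pair no neighbouring titles. The count of 407 called genes was 875 with DESeq2, 1053 with limma voom, 1030 after adding the title number, 1243 after adding 1 surrogate variable and 79 to 948 on leaving out 1 library. The count of 1 factor called was 0 with upper-quartile factors and with no filter, and 0 to 1 on leaving out 1 library. The count of 7 called list genes was 19 with DESeq2, 20 with limma voom, 12 with no filter, 21 after adding the title number, 26 after adding 1 surrogate variable and 1 to 20 on leaving out 1 library. With no filter more genes were tested (21447), and leaving out a library leaves fewer samples; other causes were not tested. Without control replicate 1 and GFP-ZFP36L1 replicate 4, a setting chosen after seeing the data, Pax5 was at -0.26 (adjusted p = 0.0286, edgeR), with 273 genes called. Values near 0 changed sign: Ikzf3 was at -0.00765 with limma voom, Foxo1 at 0.00716 with upper-quartile factors and 0.000807 with the 1 CPM filter, and Spib at 0.00693 and 0.000677 in those settings, 0.0134 with 1 surrogate variable and 0.0125 with the title number. In the setting chosen after seeing the data, Ikzf3 was at -0.072, Spib at 0.0329 and Spi1 at 0.045. On leaving out 1 library the log2 fold change was -0.0372 to 0.0251 for Foxo1, -0.157 to 0.0183 for Bach2, -0.0521 to 0.113 for Ikzf3, -0.0296 to 0.0254 for Spib and -0.126 to 0.0147 for Spi1. With 3' UTRs within 10% of the length, the share with TATTTAT was 71.1% in place of 70.9% for Pax5 and 57.7% in place of 53.8% for Ebf1. Pax5, Ebf1, Ikzf1, Ets1 and Tcf3 kept their direction under all 19 alternatives, with leave-one-out ranges of -0.239 to -0.204, -0.191 to -0.0942, -0.113 to -0.0337, -0.165 to -0.0868 and -0.107 to -0.00674 in that order. Ebf1 was lowest without control replicate 1, Ikzf1 nearest 0 without GFP-ZFP36L1 replicate 3 and Tcf3 nearest 0 without control replicate 4. With limma voom Ebf1 was at -0.21 (adjusted p = 0.0507) and Ets1 at -0.18 (adjusted p = 0.0838). Each factor had at least 2692 counts in a library.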
